A study of Mus musculus with 9 samples.

Results

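The genes described here mark the cells of brain blood vessels: 20 of endothelial cells, 9 of pericytes and 5 of arterial smooth muscle, 34 genes of the 54446 identifiers counted. They were chosen by name as cell type markers and not by a measured value, though with earlier results of these data known. All 34 were among the 17355 genes abundant enough to be tested. RNA came from brain tissue of adult male mice aged 3 to 4 months, with 3 libraries each of wild type (labelled B6N), Tfap2a+/- and Tfap2b+/-. Tfap2a and Tfap2b encode the transcription factors AP-2 alpha and AP-2 beta, and the heterozygotes carry 1 altered copy. The brain region taken, the build of either allele and whether each library is a separate animal are not stated in the sources used here. P-values therefore measure the spread between libraries only, which may be technical.

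Brain capillaries are tubes of endothelial cells sealed by tight junctions, which carry transporters for glucose, lipids and hormones and pumps that return drugs to the blood. Pericytes sit on the capillary wall, answer to PDGF-B released by the endothelium and help to keep the barrier closed. Arteries and arterioles, including those on the brain surface, are wrapped instead by smooth muscle cells that contract through actin, myosin and their regulators. In the text below, capillary genes are the 29 endothelial and pericyte genes together.

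No vascular gene passed the test in any comparison, and the 3 cell classes behaved differently from library to library. At an adjusted p under 0.05 edgeR called 0% of all genes and none of the 34. All 9 pericyte genes had a higher mean in the libraries labelled Tfap2b+/- than in wild type, and 8 of 9 did in Tfap2a+/-, where 49.7% and 48.2% of all genes tested had fitted folds above 0. The summed pericyte level was lower in each wild-type library than in each of the 6 heterozygous ones. The gap was small, with wild-type library 2 at 250.7 CPM and Tfap2a+/- library 1 at 251.1 CPM. Smooth muscle genes also had higher means in both heterozygotes, 5 of 5 each, but varied most between libraries of 1 genotype. Of the 20 endothelial genes 16 had a higher mean in Tfap2a+/- and 13 in the libraries labelled Tfap2b+/-, with smaller median folds than the other classes. In bulk tissue, fewer cells of a type and less RNA per cell cannot be told apart.

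The libraries held 21946800 to 29214975 counts in genes, and the 34 genes took 0.116% to 0.139% of them. A count of 0 would allow up to 0.101 to 0.141 CPM (the unit of level used below, a count scaled by TMM for its library's total), which is what 3 counts amount to. That floor covers counting error only. The rarest vascular gene, Cnn1, had 6 to 46 counts per library. Neuronal markers, which define brain tissue, summed to 5050 to 9053 CPM. The targeted genes did not settle the labels: Tfap2a was near the floor, at 0.223 to 0.461 CPM in Tfap2a+/- and 0.263 to 0.734 CPM in the wild type, and Tfap2b was at 32.9, 8.90 and 5.81 CPM in the group labelled Tfap2b+/- against 2.25, 0.715 and 14.8 CPM in the wild type. The labelled libraries were thus not lower as a group, the groups overlapped, and library 1 of the former and library 3 of the latter stood far above their partners. Directions for that group therefore refer to the label.

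Levels of different genes are compared per kb of exon, as the mean over 9 libraries. Bsg, the cell surface protein basigin that chaperones lactate transporters and is also made by neurons and glia, stood highest at 179.7 ± 16.8 CPM per kb (SD). Vtn (vitronectin) followed at 31.5 ± 4.08, Rgs5, a brake on G protein signalling and a classic pericyte marker, at 28.4 ± 2.401, and Itm2a, a membrane protein enriched in brain endothelium, at 24.7 ± 2.43 CPM per kb. Vtn and Rgs5 overlapped in range, as did Slc2a1 (21.6 ± 2.72) and Cldn5 (21.5 ± 2.80 CPM per kb). Of the smooth muscle genes, Acta2 ranked 13 of 34 at 6.82 ± 2.49 CPM per kb and Cnn1 ranked last at 0.250 ± 0.168 CPM per kb.

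**Figure D1:**
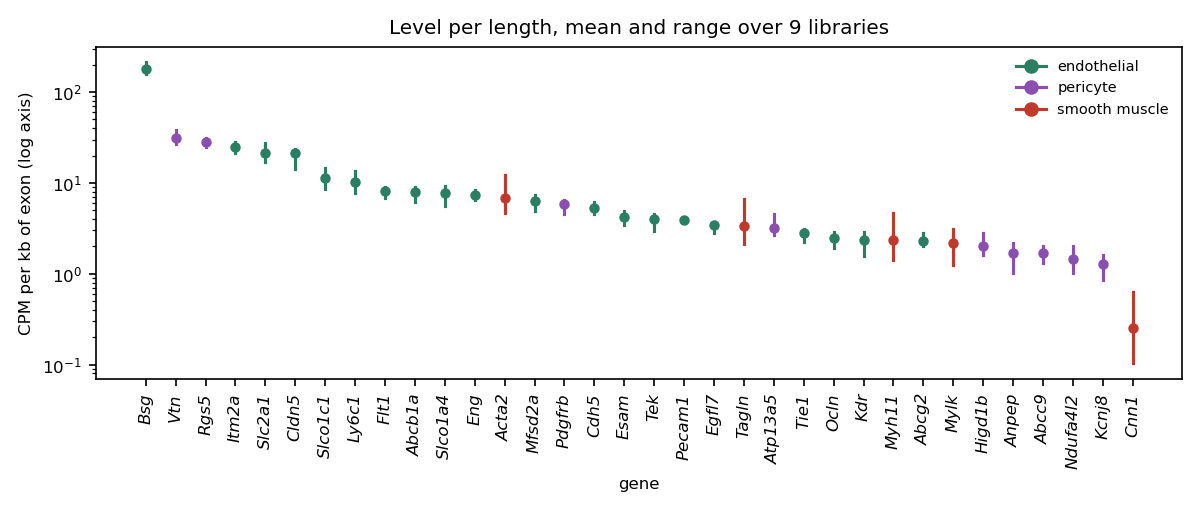
Level of each vascular gene per kb of exon (CPM per kb, log axis), with the mean over 9 libraries as a point and the lowest to highest library as a bar, coloured by cell class. Bsg stands above the rest at 179.7 CPM per kb, Cnn1 is lowest at 0.250, and the 5 smooth muscle genes have the longest bars among genes of like level.

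The spread between libraries of 1 genotype separated the classes. The median within-genotype SD of log2 CPM was 0.16 for the 20 endothelial genes, 0.19 for the 9 pericyte genes and 0.48 for the 5 smooth muscle genes, against 0.22 over all genes tested. Each smooth muscle gene, at 0.36 to 0.82, exceeded each capillary gene, at 0.07 to 0.34. The steadiest were Eng and Pecam1, at 0.07 each.

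**Figure D2:**
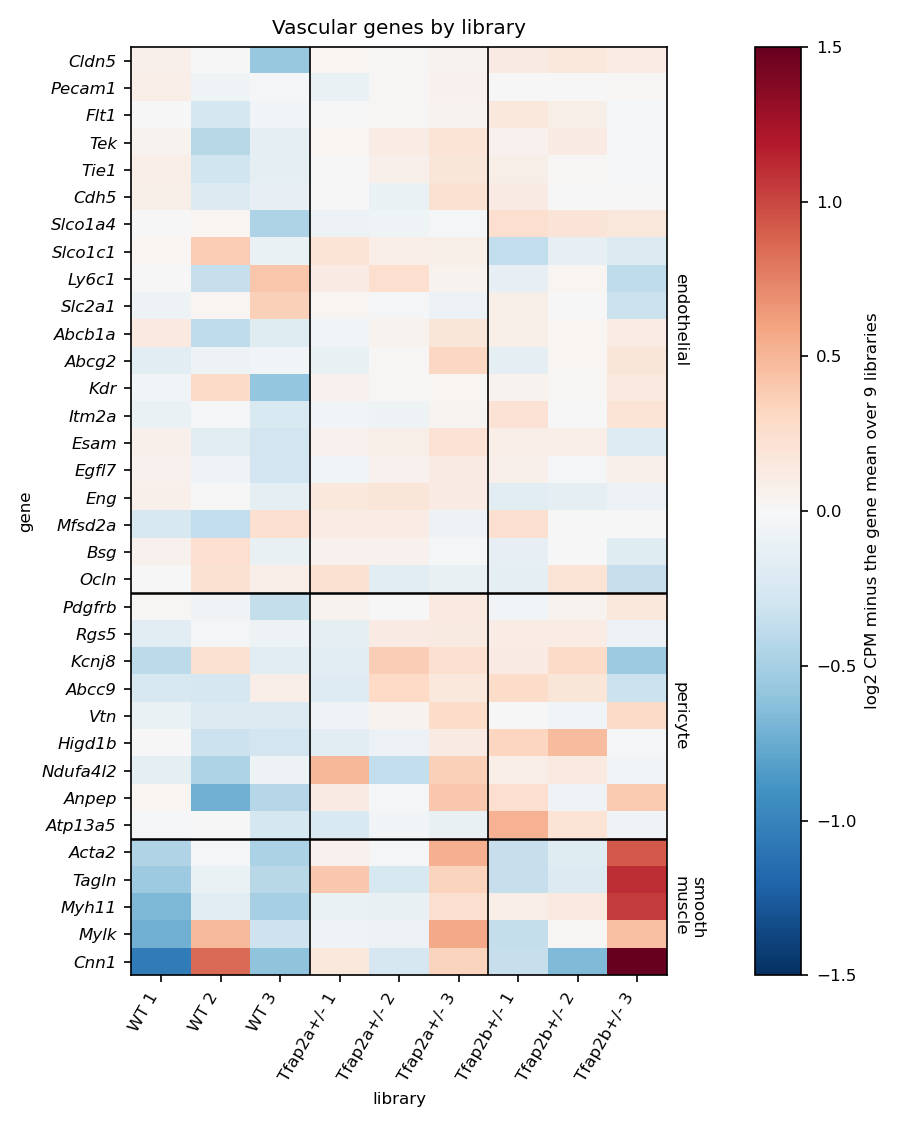
Log2 CPM of each vascular gene minus its mean over 9 libraries, with genes in rows by class and libraries in columns by genotype. The smooth muscle rows hold the strongest colours, with library 3 labelled Tfap2b+/- highest for 4 of the 5, and the pericyte rows are pale blue in most wild-type cells.

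The lowest library fell in wild type for 25 of the 34 genes, 73.5%, against 31.6% of all genes tested. By class this held for 13 of 20 endothelial, 7 of 9 pericyte and 5 of 5 smooth muscle genes. No pericyte or smooth muscle gene had its highest library in wild type, while 8 of 20 endothelial genes did. Over the 34 genes this was 23.5%, against 32.4% of all genes tested. These counts are a description of 9 libraries, and the genes of a class share cells and libraries.

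Cldn5 (ENSMUSG00000041378.2, chromosome 16, 18776847 to 18778262, GRCm38) encodes claudin-5, the main claudin of the brain's endothelial tight junctions. Because AP-2 factors bind DNA at GCCNNNGGC, the 250 bases before the start of each gene in RefSeq's GRCm38.p6 tables were searched for it on both strands. Of the 34 genes 25 were in the table, with 31 windows, and 10 of the 31 (32.3%) held a match, against 13.7% of 32851 promoters of the same length. The window of Cldn5 is shown as the promoter of the leading tight junction gene and Eng's as that of the endothelial gene with the smallest p between heterozygotes. Capitals mark the AP-2 motif and, in Eng, also a CArG box, the motif of serum response factor, with at most 1 C or G inside (8.59% of all promoters hold that form, and the strict form was in 1.47% of them and in no window of these genes).
Cldn5, chr16:18776597-18776846, plus strand: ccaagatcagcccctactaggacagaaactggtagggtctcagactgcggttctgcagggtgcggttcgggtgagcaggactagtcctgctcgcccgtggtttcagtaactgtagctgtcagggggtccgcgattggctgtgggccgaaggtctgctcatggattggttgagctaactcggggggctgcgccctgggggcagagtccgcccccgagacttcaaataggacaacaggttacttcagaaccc
Eng, chr2:32646345-32646594, plus strand: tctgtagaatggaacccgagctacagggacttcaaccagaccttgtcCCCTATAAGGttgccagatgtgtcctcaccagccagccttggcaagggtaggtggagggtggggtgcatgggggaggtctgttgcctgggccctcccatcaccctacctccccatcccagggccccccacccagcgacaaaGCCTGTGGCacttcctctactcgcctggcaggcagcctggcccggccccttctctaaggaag
The AP-2 motif of Eng begins 62 bases and its CArG form 203 bases before the start. Neither motif is in the Cldn5 window. A match is a description of letters and not a measured site.

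Cldn5 was at 31.8, 30.4 and 20.4 CPM in libraries 1 to 3 of the wild type, at 30.8, 30.6 and 31.3 CPM in Tfap2a+/- and at 32.9, 33.7 and 32.7 CPM in the group labelled Tfap2b+/-. The heterozygous libraries were close together and wild-type library 3 stood apart below them, while wild-type libraries 1 and 2 lay beside the Tfap2a+/- values. The log2 fold to wild type was 0.17 ± 0.15 (SE) in Tfap2a+/- (95% interval -0.17 to 0.50, edgeR adjusted p = 0.999) and 0.27 ± 0.15 in the libraries labelled Tfap2b+/- (-0.07 to 0.60, adjusted p = 0.53). Without wild-type library 3 these were -0.01 and 0.09.

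Pecam1, the adhesion molecule CD31 of endothelial junctions, was nearly level. Its values were 25.8, 23.1 and 23.8 CPM in the wild type, 22.5, 24.5 and 25.2 CPM in Tfap2a+/- and 23.96, 23.96 and 24.4 CPM in the group labelled Tfap2b+/-. The groups overlapped fully, with log2 folds of -0.01 ± 0.08 in both comparisons with wild type and 95% intervals of -0.19 to 0.17 for each. Esam and Cdh5 (VE-cadherin), which also join endothelial cells, had log2 folds of 0.12 to 0.24 with intervals that hold 0. Ocln (occludin), another tight junction protein, had a lower mean in both heterozygotes, by log2 folds of -0.12 ± 0.17 and -0.19 ± 0.17.

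Among receptors, Flt1, the decoy-like VEGF receptor 1, was at 110.0, 91.6 and 106.9 CPM in the wild type, 109.4, 111.2 and 114.1 CPM in Tfap2a+/- and 121.9, 116.8 and 107.6 CPM in the group labelled Tfap2b+/-. Kdr, the main signalling VEGF receptor, was at 20.6, 25.9 and 14.2 CPM, then 22.3, 21.5 and 21.7 CPM, then 22.0, 21.5 and 23.4 CPM in the same order. Wild type spanned both ends of the Kdr range and overlapped both heterozygotes, with a log2 fold of 0.11 ± 0.18 in Tfap2a+/- and 0.14 ± 0.18 in the libraries labelled Tfap2b+/-. Tek, the angiopoietin receptor Tie2, had means of 16.8 ± 2.66, 20.3 ± 1.23 and 19.5 ± 0.904 CPM in the 3 groups (SD, n = 3), with log2 folds of 0.27 ± 0.12 and 0.21 ± 0.12. Its partner Tie1 had log2 folds of 0.19 ± 0.12 and 0.13 ± 0.12, and wild-type library 2 was the lowest of the 9 for Flt1, Tek, Tie1 and Cdh5.

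Eng (ENSMUSG00000026814.16, chromosome 2, 32646595 to 32682669) encodes endoglin, a co-receptor for BMP9 and TGF-beta on endothelium. It was at 30.9, 29.3 and 26.6 CPM in the wild type, 32.9, 33.4 and 32.1 CPM in Tfap2a+/- and 26.5, 26.9 and 27.6 CPM in the group labelled Tfap2b+/-. Every Tfap2a+/- library lay above every library of the other groups, and the other groups overlapped. The log2 fold in Tfap2a+/- against wild type was 0.18 ± 0.08 (95% interval 0.005 to 0.35), which did not pass over all genes (edgeR adjusted p = 0.999). Between the heterozygotes it was 0.28 ± 0.08, higher in Tfap2a+/- in 3 of 3 libraries (95% interval 0.11 to 0.45, edgeR adjusted p = 0.33, DESeq2 adjusted p = 0.099), and it stayed at 0.27 to 0.30 with each library left out in turn.

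The transporters of the barrier did not share a direction. Slc2a1, the glucose transporter GLUT1, was at 71.5, 76.6 and 96.1 CPM in the wild type, 76.7, 73.9 and 70.5 CPM in Tfap2a+/- and 79.8, 75.3 and 60.1 CPM in the group labelled Tfap2b+/-. Wild-type library 3, the lowest for Cldn5 and Kdr, was the highest for Slc2a1, and the groups overlapped (log2 folds -0.14 ± 0.13 and -0.18 ± 0.13). Abcb1a, a P-glycoprotein pump, was at 48.4, 33.6 and 38.5 CPM in the wild type, 42.6, 45.6 and 49.6 CPM in Tfap2a+/- and 46.3, 44.6 and 47.3 CPM in the group labelled Tfap2b+/-. Its log2 folds of 0.19 ± 0.13 and 0.20 ± 0.13 are uncertain because reads shared with its near copy Abcb1b are not counted.

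Slco1a4 and Slco1c1 are neighbouring genes of chromosome 6 for organic anion transporters, and Slco1c1 carries thyroxine. Slco1a4 was at 49.6, 50.5 and 36.1 CPM in the wild type, 46.5, 47.3 and 48.9 CPM in Tfap2a+/- and 59.3, 56.5 and 55.9 CPM in the group labelled Tfap2b+/-. Slco1c1 was at 58.5, 75.0 and 53.5 CPM, then 66.4, 61.3 and 60.9 CPM, then 44.3, 52.6 and 49.7 CPM. In the libraries labelled Tfap2b+/- every Slco1a4 value was above and every Slco1c1 value below those of both other groups. The log2 folds to wild type were 0.33 ± 0.12 for Slco1a4 (95% interval 0.06 to 0.61) and -0.35 ± 0.13 for Slco1c1 (-0.64 to -0.06), neither past the threshold (edgeR adjusted p = 0.43 for each). Slco1c1 is also made by choroid plexus and astrocytes. Choroid plexus markers summed to 52.5 to 3236 CPM in the wild type, with the top value in library 2, to 20.96 to 891 CPM in Tfap2a+/- and to 32.8 to 305 CPM in the group labelled Tfap2b+/-, and none of its 10 markers was at 0 in any library. Without wild-type library 2 the Slco1c1 log2 fold was -0.19. It was -0.12 ± 0.09 without that library and library 1 of each heterozygote. These libraries were picked after seeing the data for high choroid plexus or hindbrain markers. Library 1 labelled Tfap2b+/- had a choroid plexus sum of 42.2 CPM, and no hindbrain list is given here. Wild-type library 2 was the highest for Slco1c1 and library 1 labelled Tfap2b+/- the lowest. Leaving out both shrinks the difference whatever its cause, and the part of the choroid plexus in the Slco1c1 fold was not tested.

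Itm2a was at 40.1, 42.4 and 36.8 CPM in the wild type, 41.8, 40.7 and 44.1 CPM in Tfap2a+/- and 49.8, 43.2 and 49.5 CPM in the group labelled Tfap2b+/-. The last group lay above wild type in 3 of 3 libraries, with a log2 fold of 0.26 ± 0.09 (95% interval 0.06 to 0.45, edgeR adjusted p = 0.42). Of the remaining endothelial genes, Mfsd2a, the lipid transporter that restrains vesicle transport across the barrier, and the drug pump Abcg2 had log2 folds of 0.12 to 0.18 in both comparisons. Egfl7, a matrix protein that guides vessel growth, had 0.14 ± 0.11 and 0.13 ± 0.11. Ly6c1, a surface antigen whose near copy Ly6c2 makes its count uncertain, had 0.09 ± 0.19 and -0.20 ± 0.19, and Bsg had -0.04 ± 0.10 and -0.18 ± 0.10.

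Over the 20 endothelial genes, 16 had a higher mean in Tfap2a+/- than in wild type, with a median log2 fold of 0.12, and 13 did in the libraries labelled Tfap2b+/-, with a median of 0.13. Over all genes tested 48.2% and 49.7% had fitted folds above 0, and the median was -0.01 and -0.00. The summed endothelial level ran from 892 to 987 CPM in the wild type, 972 to 974 CPM in Tfap2a+/- and 898 to 961 CPM in the group labelled Tfap2b+/-, so the groups overlapped in this sum, of which Bsg is the largest part. The endothelial score, which averages log2 CPM relative to each gene's own mean and so weighs the 20 genes alike, was 0.01, -0.07 and -0.12 in wild type, 0.03, 0.04 and 0.08 in Tfap2a+/- and 0.03, 0.03 and -0.04 in the libraries labelled Tfap2b+/-. By the score every Tfap2a+/- library lay above every wild-type library, and the libraries labelled Tfap2b+/- overlapped wild type. The heterozygotes share the wild-type libraries, so their folds are not independent of each other. Wild-type library 3 was the lowest of 9 for 6 endothelial genes and wild-type library 2 for another 6.

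**Figure D3:**
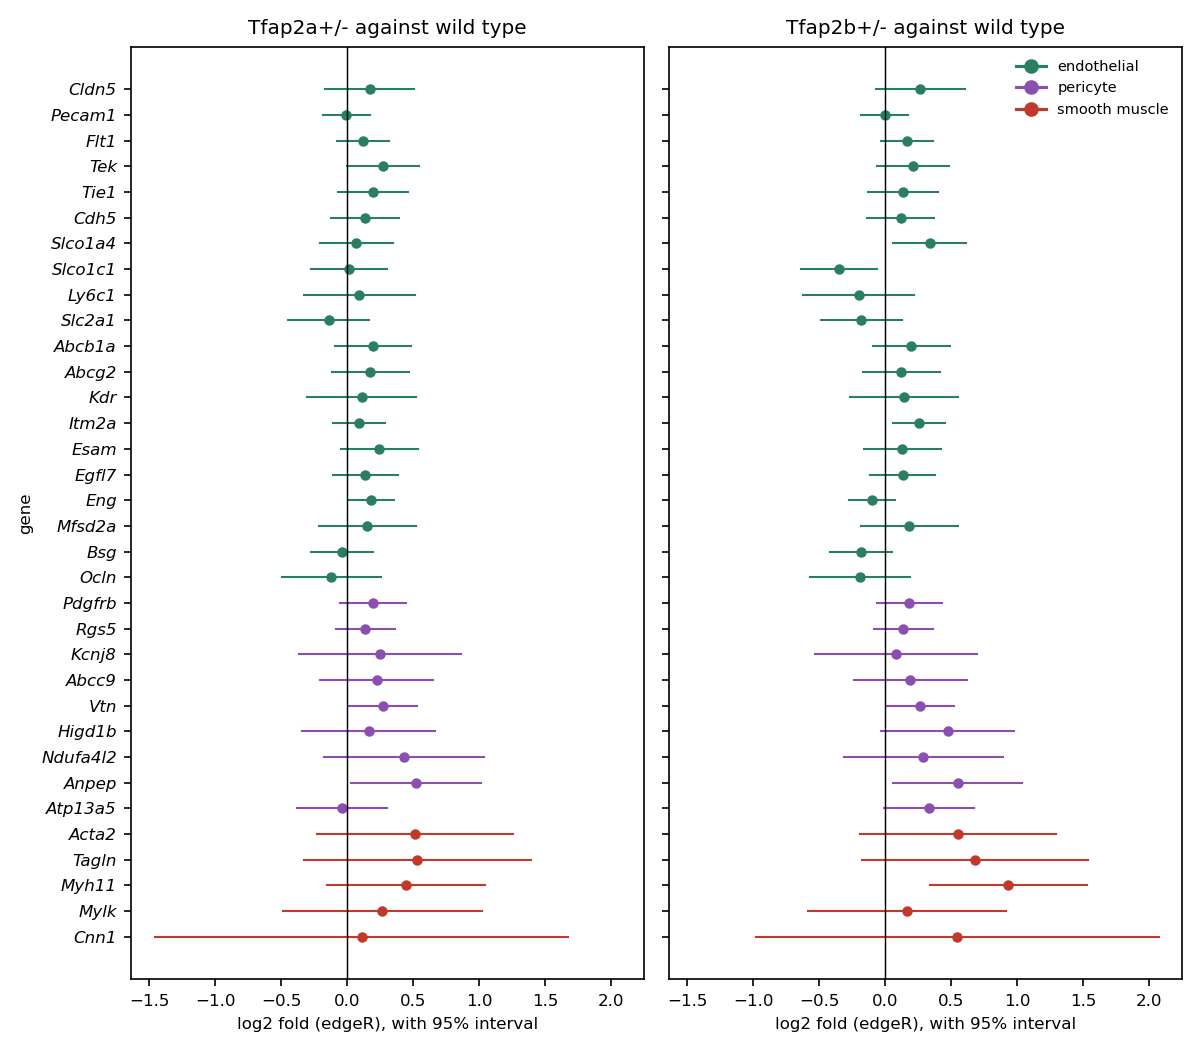
Log2 fold of each vascular gene against wild type with its 95% interval from edgeR, for Tfap2a+/- on the left and the libraries labelled Tfap2b+/- on the right, coloured by cell class. Most points lie right of 0, the intervals of smooth muscle genes are the widest, and no gene passed the adjusted threshold.

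Vtn (ENSMUSG00000017344.4, chromosome 11, 78499091 to 78502324) encodes vitronectin, an adhesive matrix protein that brain pericytes secrete onto the endothelium. It was at 59.2, 55.4 and 54.8 CPM in the wild type, 61.4, 66.0 and 76.8 CPM in Tfap2a+/- and 63.4, 61.7 and 77.6 CPM in the group labelled Tfap2b+/-. Each of the 6 heterozygous libraries lay above each wild-type library. The log2 folds were 0.27 ± 0.11 (95% interval 0.01 to 0.53, edgeR adjusted p = 0.999) and 0.26 ± 0.11 (0.001 to 0.52, adjusted p = 0.47), and they remained positive with each library left out, at 0.15 to 0.35.

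Anpep (ENSMUSG00000039062.15, chromosome 7, 79821803 to 79861059), the ectopeptidase CD13 of pericytes, had the largest pericyte fold in both comparisons. Its window before the RefSeq start is shown because it holds the AP-2 motif, in capitals, 124 bases before that start, which lies inside the longer GENCODE span.
Anpep, chr7:79848211-79848460, minus strand: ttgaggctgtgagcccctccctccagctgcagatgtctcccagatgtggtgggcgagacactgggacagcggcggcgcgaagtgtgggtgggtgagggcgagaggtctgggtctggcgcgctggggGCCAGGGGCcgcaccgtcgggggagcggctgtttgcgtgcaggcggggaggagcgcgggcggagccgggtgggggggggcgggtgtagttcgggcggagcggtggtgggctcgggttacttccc
Its values were 7.04, 4.18 and 5.14 CPM in the wild type, 7.497, 6.82 and 9.12 CPM in Tfap2a+/- and 8.19, 6.64 and 9.05 CPM in the group labelled Tfap2b+/-. Wild-type library 1 reached into the range of the heterozygotes, and wild-type libraries 2 and 3 lay below all 6. The log2 folds were 0.52 ± 0.22 (95% interval 0.03 to 1.01, edgeR adjusted p = 0.999) and 0.55 ± 0.22 (0.06 to 1.04, adjusted p = 0.45). Leaving out wild-type library 2 lowered them to 0.37 and 0.40. Anpep is also made by fibroblasts of the meninges, whose values stand below.

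Pdgfrb, the receptor for PDGF-B and the gene most used to define pericytes, was at 32.3, 30.8 and 24.9 CPM in the wild type, 33.1, 32.0 and 35.4 CPM in Tfap2a+/- and 31.0, 33.1 and 35.6 CPM in the group labelled Tfap2b+/-. Rgs5 was at 114.4, 127.7 and 121.9 CPM, then 117.7, 140.2 and 141.9 CPM, then 139.8, 138.8 and 121.6 CPM. Both overlapped wild type, with log2 folds of 0.19 ± 0.11 and 0.18 ± 0.11 for Pdgfrb and of 0.14 ± 0.10 in each comparison for Rgs5. Kcnj8 and Abcc9, the pore and the regulator of the pericyte's ATP-sensitive potassium channel, had log2 folds of 0.25 ± 0.27 and 0.22 ± 0.19 in Tfap2a+/- and 0.08 ± 0.27 and 0.19 ± 0.19 in the libraries labelled Tfap2b+/-. Higd1b, a mitochondrial protein gene, and Ndufa4l2, a relative of a respiratory chain subunit, are rare, at 36 to 70 and 27 to 64 counts, and had log2 folds of 0.16 to 0.47.

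Atp13a5, a P5-type ATPase gene used to mark brain pericytes, was at 14.6, 14.8 and 12.4 CPM in the wild type, 12.6, 14.3 and 13.7 CPM in Tfap2a+/- and 21.2, 17.1 and 14.3 CPM in the group labelled Tfap2b+/-. Libraries 1 and 2 of the last group were above all others and library 3 lay among wild type. It was the pericyte gene that had a lower mean in Tfap2a+/- (-0.04 ± 0.15), and it differed most between heterozygotes, at -0.37 ± 0.15 in Tfap2a+/- relative to the libraries labelled Tfap2b+/- (95% interval -0.71 to -0.03, edgeR adjusted p = 0.41).

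As a class, the pericyte genes had a median log2 fold of 0.22 in Tfap2a+/- and 0.26 in the libraries labelled Tfap2b+/-. Their summed level was 239.7 to 250.7 CPM in the wild type, 251.1 to 300.0 CPM in Tfap2a+/- and 274.6 to 287.6 CPM in the group labelled Tfap2b+/-. The gap between the highest wild-type and the lowest Tfap2a+/- library was small. Rgs5, which overlapped between the groups, is the largest part of this sum. The pericyte score, which takes each gene's log2 CPM relative to its own average over the 9 libraries and averages the 9 genes, was -0.11, -0.19 and -0.19 in wild type, -0.03, 0.04 and 0.19 in Tfap2a+/- and 0.18, 0.15 and -0.03 in the libraries labelled Tfap2b+/-. The wild-type scores were below all 6 others. With each library left out in turn the class median stayed between 0.18 and 0.27 for Tfap2a+/- and between 0.24 and 0.34 for the libraries labelled Tfap2b+/-.

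Acta2 (ENSMUSG00000035783.8, chromosome 19, 34241090 to 34255590) encodes smooth muscle actin, the most used marker of arterial smooth muscle. Of the smooth muscle genes in the table it held both motifs, and 3 stretches of 30 bases on the minus strand are shown with the motif in capitals, the first AP-2 and the others the CArG form, which begin 123, 84 and 34 bases before the RefSeq start and lie inside the gene's GENCODE span.
Acta2, chr19:34255477-34255506: agagacccagGCCTCTGGCcacccagatta
Acta2, chr19:34255438-34255467: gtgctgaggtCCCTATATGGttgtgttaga
Acta2, chr19:34255388-34255417: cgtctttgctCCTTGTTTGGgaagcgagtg
Its level was 10.4, 14.0 and 10.2 CPM in the wild type, 14.9, 14.0 and 20.5 CPM in Tfap2a+/- and 11.2, 12.6 and 27.0 CPM in the group labelled Tfap2b+/-. Every Tfap2a+/- library lay above wild type, though only just for library 2, and of the last group only library 3 did. The log2 folds were 0.51 ± 0.33 (95% interval -0.23 to 1.25) and 0.55 ± 0.33 (-0.19 to 1.29), with edgeR adjusted p = 0.999 and 0.55. Without library 3 of the group labelled Tfap2b+/- the second was 0.04.

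Tagln, the actin-binding protein SM22, was at 4.27, 5.83 and 4.67 CPM in the wild type, 8.22, 5.26 and 7.88 CPM in Tfap2a+/- and 4.91, 5.43 and 13.4 CPM in the group labelled Tfap2b+/-. Again library 3 of the last group was the highest of 9 and its partners lay among wild type. The log2 folds were 0.53 ± 0.38 and 0.68 ± 0.38, and the latter was 0.06 without that library.

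Myh11 (ENSMUSG00000018830.10, chromosome 16, 14194535 to 14291372), the smooth muscle myosin heavy chain, was at 10.7, 15.2 and 12.01 CPM in the wild type, 15.8, 15.7 and 20.0 CPM in Tfap2a+/- and 18.2, 18.8 and 35.2 CPM in the group labelled Tfap2b+/-. All 6 heterozygous libraries lay above all 3 of wild type, and library 3 labelled Tfap2b+/- lay far above the rest. Its log2 fold in that group was 0.93 ± 0.26 (95% interval 0.34 to 1.52), the largest of the 34 genes and higher in 3 of 3 libraries. It did not pass (edgeR adjusted p = 0.37, DESeq2 adjusted p = 0.095) and was 0.55 without library 3. In Tfap2a+/- it was 0.44 ± 0.26 (-0.15 to 1.04, edgeR adjusted p = 0.999).

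Mylk, the kinase that switches on myosin, is made by other cells too and had another order of libraries, from 14.1 CPM in wild-type library 1 to 34.7 CPM in Tfap2a+/- library 3, with wild-type library 2 second at 32.8 CPM. Its log2 folds were 0.26 ± 0.33 and 0.16 ± 0.33. Cnn1 (calponin 1), a brake on the myosin motor, was at 0.282, 1.05 and 0.386 CPM in the wild type, 0.650, 0.490 and 0.737 CPM in Tfap2a+/- and 0.459, 0.371 and 1.73 CPM in the group labelled Tfap2b+/-. At 6 to 46 counts its log2 fold of 0.54 ± 0.67 in the last group had an interval of -0.98 to 2.07, and it turned to -0.49 without library 3.

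**Figure D4:**
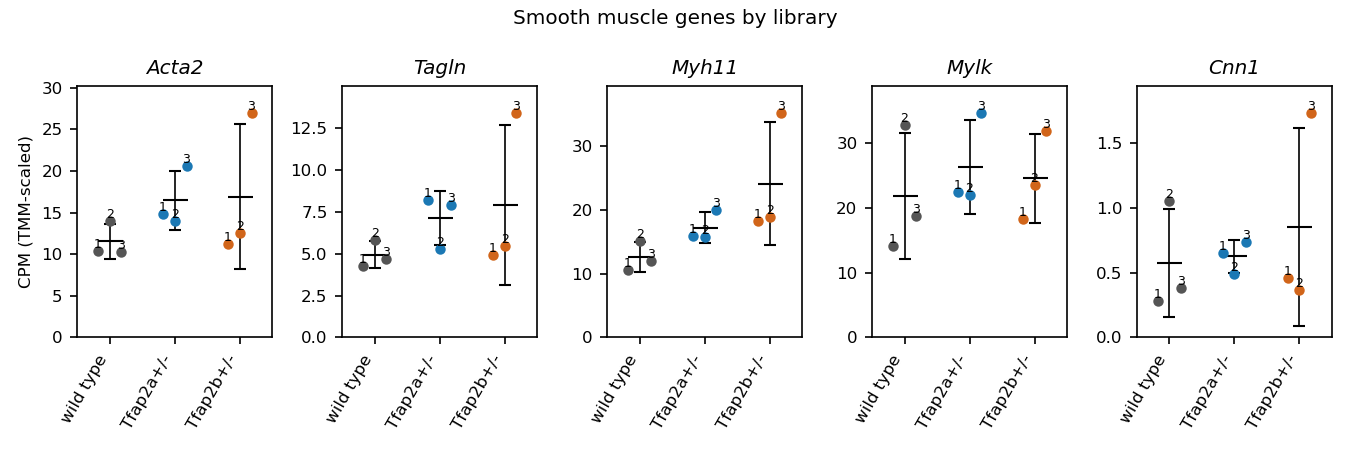
TMM-scaled CPM of the 5 smooth muscle genes in each library, with library numbers beside the points and the mean ± SD of 3 libraries as bars. Library 3 labelled Tfap2b+/- is the highest for Acta2 (27.0 CPM), Tagln (13.4), Myh11 (35.2) and Cnn1 (1.73), while for Mylk the highest is Tfap2a+/- library 3 (34.7).

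The smooth muscle genes were then set against the capillary genes within each library. The smooth muscle score minus the capillary score was -0.63, 0.30 and -0.30 in wild type, 0.07, -0.18 and 0.28 in Tfap2a+/- and -0.33, -0.23 and 1.02 in the libraries labelled Tfap2b+/-. Library 3 of the last group stood apart, its partners lay within the wild-type range, and all groups overlapped. The mean difference from wild type was 0.27 for Tfap2a+/- and 0.37 for the libraries labelled Tfap2b+/-, with SDs within groups of 0.23 to 0.75. Without library 3 labelled Tfap2b+/- the latter was -0.07. In that library the endothelial score was -0.04 and the pericyte score -0.03. Single pericyte genes were high there all the same: it was the highest of 9 for Vtn (77.6 CPM) and Pdgfrb (35.6 CPM) and the lowest for Kcnj8 (2.19 CPM) and Abcc9 (11.1 CPM). By class medians, smooth muscle genes stood at a log2 fold of 0.44 and 0.55, beside 0.15 and 0.14 for capillary genes.

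Markers of other cells were set beside the smooth muscle genes. The meningeal and perivascular fibroblast score was -0.43, -0.05 and -0.35 in wild type, 0.01, -0.31 and 0.27 in Tfap2a+/- and 0.19, -0.06 and 0.73 in the libraries labelled Tfap2b+/-, so that its highest library was the same as for smooth muscle and its lowest was also wild-type library 1. All 14 fibroblast markers had a higher mean in the libraries labelled Tfap2b+/- (median log2 fold 0.60) and 9 of 14 in Tfap2a+/- (0.29). Their summed level was 168 to 221, 189 to 230.1 and 204 to 332 CPM in the 3 groups. Pdgfra, also counted among the vessel signalling genes below, is not particular to fibroblasts. In the wild type it averaged 65.7 CPM of a mean sum of 188.9 CPM, so the sums do not measure fibroblast RNA alone. The score weighs it as 1 of 14 genes. None of the fibroblast markers was at 0 in any library. The defining marker Dcn (decorin) was at 25.4 CPM in library 3 labelled Tfap2b+/- against 10.3 to 24.1 CPM elsewhere. Oligodendrocyte markers were lowest in the library with the most smooth muscle RNA in each heterozygote, at 2185 CPM in Tfap2a+/- library 3 and 2606 CPM in library 3 labelled Tfap2b+/-, against 4267 to 7118 CPM in the other 7. Their defining marker Mbp was at 973 and 1079 CPM there, and none of the 7 markers was at 0. Wild type went the other way, as its library 2 had the most smooth muscle RNA (68.8 CPM) and the most oligodendrocyte RNA (6989 CPM). The part of these cells and of the tissue piece taken in the smooth muscle values was not tested.

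**Figure D5:**
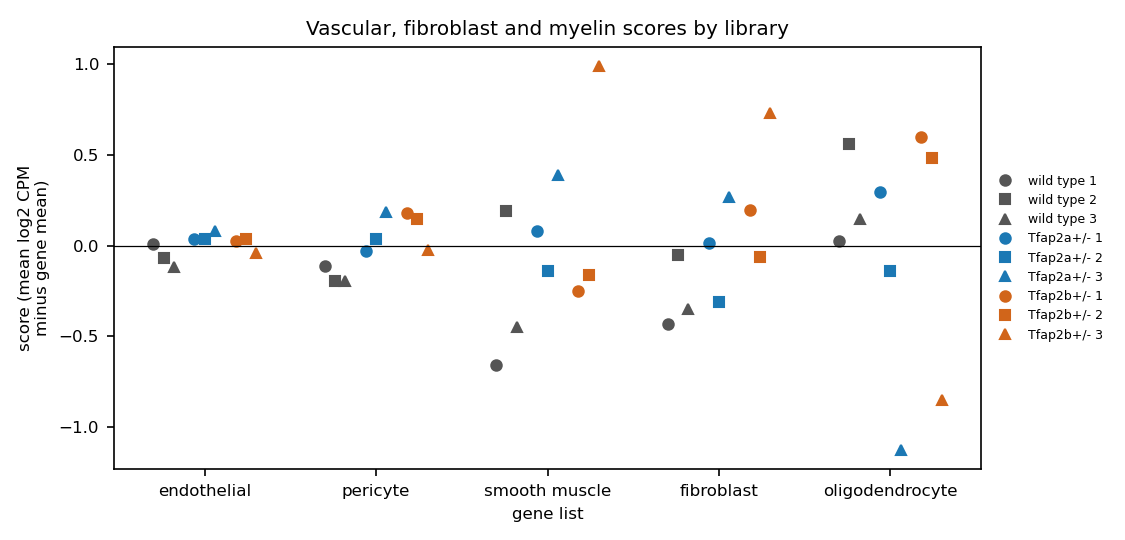
Score per library (log2 CPM relative to each gene's 9-library average, averaged over a list) for endothelial, pericyte, smooth muscle, meningeal and perivascular fibroblast and oligodendrocyte genes, with genotype as colour and library number as symbol. Endothelial and pericyte scores stay between -0.19 and 0.19, whereas library 3 labelled Tfap2b+/- stands at 0.99 for smooth muscle and 0.73 for fibroblasts and at -0.85 for oligodendrocytes.

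Red blood cell markers, led by Hbb-bs, bear on how much blood the tissue held. They summed to 206 to 282 CPM in the wild type, 196 to 272 CPM in Tfap2a+/- and 148 to 240.2 CPM in the group labelled Tfap2b+/-. The groups overlapped, and the globin genes among them are uncertain because of near copies. Perivascular macrophage markers summed to 11.6 to 15.8, 12.2 to 18.9 and 13.5 to 20.9 CPM. Reads without an exon on the counted strand include reads antisense to exons. They made up 7.30% to 8.86% of fragments in wild type, 8.07% to 8.96% in Tfap2a+/- and 11.1% to 11.8% in the libraries labelled Tfap2b+/-. The last range did not overlap the others, and the part of these reads in the vascular values was not tested.

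Markers of brain regions also differed between groups. All 8 striatal markers, with Ppp1r1b as the defining one, had a higher mean in Tfap2a+/- than in wild type (median log2 fold 2.07), with sums of 149 to 741 CPM in the wild type and 444 to 1645 CPM in Tfap2a+/-. All 7 hippocampal markers had a lower mean in Tfap2a+/- (median -1.27, sums of 208 to 488 and 198 to 283 CPM), as did 6 of 7 thalamic markers (median -0.70, sums of 258 to 369 and 190 to 289.9 CPM). All 7 thalamic markers, with Tcf7l2 as the defining one, had a higher mean in the group labelled Tfap2b+/- (median 0.97), with sums of 258 to 369 and 198 to 1025 CPM, and all 8 immediate early genes had a lower mean there (median -1.62), with sums of 425 to 1423 and 228 to 334 CPM. Of these 4 lists only Spink8, a hippocampal marker, was at 0 in some library. Their part in the vascular values was not tested.

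Counted over all 34 genes, 29 had a higher mean in Tfap2a+/- than in wild type. For 4 of them the groups did not overlap and Tfap2a+/- was above, namely Eng, Vtn, Acta2 and Myh11, and for none was it below. The share over all genes tested was 4.85% above and 4.32% below (9.17% in all). At an unadjusted p under 0.05 edgeR had 3 genes, all higher, against 3.84% of all genes (2.15% higher, 1.68% lower). By edgeR and by DESeq2 0 of the 34 passed the adjusted threshold, and over all genes they called 0% and 0.157%.

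In the libraries labelled Tfap2b+/-, 27 of the 34 had a higher mean than in wild type. For 6 the groups did not overlap and the labelled group was above (Cldn5, Slco1a4, Itm2a, Vtn, Ndufa4l2 and Myh11), and for Slco1c1 it was below, against 8.84% and 7.63% of all genes tested (16.5% in all). An unadjusted p under 0.05 was seen for 6 genes in edgeR, 5 higher and 1 lower, against 10.6% of all genes (6.46% higher, 4.15% lower). Again 0 of 34 passed with edgeR or DESeq2, which called 0% and 0.760% of all genes.

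Between the heterozygotes, 18 of the 34 had a higher mean in Tfap2a+/- (48.3% of all genes tested) and 16 in the libraries labelled Tfap2b+/-. The groups did not overlap for 3 genes higher in Tfap2a+/- (Slco1c1, Ly6c1 and Eng) and for 2 lower (Cldn5 and Slco1a4), against 8.03% and 9.20% of all genes tested (17.2% in all). An unadjusted p under 0.05 was seen for 3 genes in edgeR, against 11.5% of all genes (4.98% higher, 6.53% lower). None passed with edgeR or DESeq2, which called 0% and 1.25% of all genes. The class medians were 0.03 for endothelial, 0.01 for pericyte and -0.15 for smooth muscle genes, and Slco1c1 had the largest positive log2 fold at 0.36 ± 0.13 (95% interval 0.08 to 0.65, edgeR adjusted p = 0.39). Without library 3 labelled Tfap2b+/- the smooth muscle median turned to 0.46.

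The wider pathway was followed in 51 genes of vessel signalling (ligands, receptors and transcription factors of the VEGF, angiopoietin, PDGF, Wnt, Notch and TGF-beta systems). In Tfap2a+/- 30 and in the libraries labelled Tfap2b+/- 32 had a higher mean than in wild type, with medians of 0.04 and 0.12, and none passed the edgeR test. At an unadjusted p under 0.05 there were 2 higher and 1 lower in the former, where 2.15% and 1.68% of all genes tested were, and 7 higher and 3 lower in the latter, where 6.46% and 4.15% were. Of the ligands, Vegfa was at 48.0, 54.3 and 48.7 CPM in the wild type, 51.2, 45.9 and 54.9 CPM in Tfap2a+/- and 62.6, 53.7 and 48.8 CPM in the group labelled Tfap2b+/-, and the groups overlapped. Pdgfb, the ligand of the Pdgfrb receptor, was at 23.3, 30.5 and 24.3 CPM, then 19.0, 24.4 and 22.0 CPM, then 14.6, 18.2 and 23.2 CPM. The last group lay just below wild type in 3 of 3 libraries, opposite in direction to Pdgfrb, with a log2 fold of -0.48 ± 0.18 that did not pass.

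Angpt1, the Tek ligand made by mural cells, had a log2 fold of 0.71 ± 0.23 in the libraries labelled Tfap2b+/-, at 9.42, 7.08 and 11.7 CPM against 4.32, 7.38 and 5.48 CPM. Library 2 of that group fell inside the wild-type range. Its antagonist Angpt2 had 0.64 ± 0.37, and in Tfap2a+/- they had 0.31 ± 0.23 and -0.03 ± 0.37. Adgra2 (GPR124) and Reck, which together let brain endothelium read Wnt7 ligands, had log2 folds of 0.41 ± 0.13 and 0.52 ± 0.18 in the libraries labelled Tfap2b+/- and of 0.35 ± 0.14 and 0.19 ± 0.18 in Tfap2a+/-. Adgra2 lay above wild type in all 6 heterozygous libraries.

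Acvrl1 (ALK1), the type I receptor that binds BMP9 beside endoglin, was at 14.2, 13.1 and 14.7 CPM in the wild type, 18.2, 19.7 and 17.8 CPM in Tfap2a+/- and 13.9, 13.4 and 15.0 CPM in the group labelled Tfap2b+/-. Like Eng, it was higher in each Tfap2a+/- library than in all 6 others. Its log2 fold was 0.41 ± 0.09 to wild type (edgeR adjusted p = 0.93) and 0.40 ± 0.09 to the libraries labelled Tfap2b+/- (adjusted p = 0.33). Smad6, an inhibitory SMAD of the same pathway, had a log2 fold of 0.55 ± 0.20 between the heterozygotes. Nrp1, a VEGF co-receptor that neurons make too, was lower in mean in both heterozygotes (-0.89 ± 0.24 and -0.58 ± 0.24), and Lef1, a Wnt effector also made in the thalamus, differed between them by -1.42 ± 0.37.

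Along the arteriovenous axis, 7 of 8 arterial endothelial genes had a higher mean in each heterozygote than in wild type, with medians of 0.17 and 0.10. Venous genes were higher in 1 and 2 of the 6 tested, with medians of -0.04 and -0.08. Over all genes tested 48.2% and 49.7% had fitted folds above 0. Sema3g, an arterial semaphorin, was at 6.40 to 7.80 CPM in the wild type, 7.29 to 8.33 CPM in Tfap2a+/- and 8.15 to 8.54 CPM in the group labelled Tfap2b+/-. In that group it was the 1 arterial gene of 8 above wild type without overlap, against 8.84% of all genes tested (log2 fold 0.24 ± 0.12). Cxcl12, a chemokine of arterial endothelium that other cells make too, had log2 folds of 0.39 ± 0.19 and -0.09 ± 0.19, and Ackr1, a chemokine scavenger of venules, -0.01 ± 0.20 and -0.39 ± 0.20. Nr2f2, a venous transcription factor that neurons also make, reached 60.3 CPM in wild-type library 2 against 11.1 to 28.9 CPM elsewhere. The von Willebrand factor gene Vwf had -0.06 ± 0.16 and 0.20 ± 0.16, and the venous receptor Ephb4 0.10 ± 0.14 and 0.22 ± 0.14.

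A second list of 12 smooth muscle contractile genes did not repeat one direction in Tfap2a+/-, where 5 of 12 had a higher mean (median log2 fold -0.02). In the libraries labelled Tfap2b+/- 10 of 12 did (median 0.59). Its summed level was highest in libraries 2 and 1 of that group, at 133 and 86.7 CPM, against 55.5 CPM in library 3. Those sums were carried by genes that neurons make too, with Synpo2 at 84.4 CPM in library 2 and Synpo2, Nrip2 and Sncg at 24.3, 17.2 and 15.6 CPM in library 1. Lmod1, a leiomodin of smooth muscle actin filaments, was highest in library 3, at 4.30 CPM against 1.17 to 2.63 CPM elsewhere. Acta2, Tagln and Myh11 were highest there too, and so were Mustn1, Tpm2 and Map3k7cl of this list. Des and Pln were not: Des was highest in Tfap2a+/- library 3 (3.32 CPM) and Pln in wild-type library 2 (4.18 CPM). Of 20 other barrier genes 7 had a higher mean in Tfap2a+/- (median -0.04) and 13 in the libraries labelled Tfap2b+/- (median 0.05). None of these genes passed the edgeR test.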

How the data were processed

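The authors deposited whole-number counts per gene for each library, in STAR's layout with unstranded, forward and reverse columns. Tools and build per the submitters' processing notes were STAR 2.6.1d, cutadapt 2.4, edgeR and the GRCm38.p6 assembly, with the annotation release not given in the sources used here. The reverse column was taken because the labels' protocol marks strand by dUTP (forward counts made up 4.16% to 4.94% of stranded ones). Reads at several positions are not counted. Identifiers were named through GENCODE M21 (54409 of 54446 matched, versions ignored), and 4 rows that name no gene were left out. Of the fragments 1.21% to 1.74% were unmapped, 5.33% to 6.20% were at several positions and 1.10% to 1.21% were ambiguous. Another 7.30% to 11.8% met no exon on the counted strand, which includes reads antisense to an exon. Genes kept by filterByExpr (17355) were tested by edgeR 4.0.16 under R 4.3.3, with TMM scaling, the quasi-likelihood F-test, genotype as the term, all 9 libraries sharing the spread, and Benjamini-Hochberg adjusted p under 0.05 over all genes. The test was tried on simulated counts. Intervals are 95%, and log2 CPM used a prior count of 2. DESeq2 1.42.0 and the settings in the closing section were alternatives. No libraries of a genotype agreed within sampling noise (chi-square per degree of freedom at least 20.6).

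The genes and lists were chosen with earlier results of these data known. Values per library are given by rule for Cldn5, Pecam1, Flt1, Kdr, Slc2a1, Abcb1a, Pdgfrb, Rgs5, Vtn, Acta2, Tagln, Myh11 and Cnn1 and, per comparison, for the 3 vascular genes with the lowest p. The signalling and arteriovenous lists are named by their 3 lowest p per comparison and by the ligands Vegfa, Pdgfb, Angpt1 and Angpt2, and other cells by a defining marker. Other genes named were chosen after their values were seen.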

Additional observations from a re-analysis of the deposited data

How the results depend on the processing

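No vascular gene passed in any of the 1830 values from alternative settings, which cover 102 fold changes, and the smallest adjusted p was 0.095 (Myh11, DESeq2). Of these values 1730 kept their sign. The other 100 included 97 of folds within 1 SE of 0, and the remaining 3 were Cldn5 in Tfap2a+/- (-0.011 without wild-type library 3, and up to 0.29 without library 1), Ly6c1 in the group labelled Tfap2b+/- (0.014 without wild-type library 3, and down to -0.36 without library 2) and Mfsd2a there (-0.012 without the 3 marker-high libraries). These are library 1 of each heterozygote and wild-type library 2, picked after seeing the data for high choroid plexus or hindbrain markers.

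Genes called over the whole table for Tfap2a+/- against wild type, the group labelled Tfap2b+/- against wild type and the heterozygotes were 30, 150 and 208 with DESeq2, and 2, 0 and 7 with no filter on low counts. Leaving out each library gave 0 to 3, 0 to 4 and 0 to 31 (31 without library 3 labelled Tfap2b+/-), and leaving out the 3 marker-high libraries 0, 2 and 1. Leaving out each library moved the smooth muscle median in the group labelled Tfap2b+/- to 0.041 to 0.89 and between heterozygotes to -0.40 to 0.46. The endothelial medians moved to 0.075 to 0.14 and 0.065 to 0.17. Without the 3 marker-high libraries the smooth muscle median was 1.07 and the endothelial median 0.041 in the group labelled Tfap2b+/-. The cause was not tested.

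With the replicate number as a block, 0 genes were called in each comparison and no class median moved by more than the spread between replicates. Same-numbered libraries of 2 genotypes deviated together at r = -0.35 to 0.34 and differently numbered ones at r = -0.39 to 0.37. No pairing by number was seen in these values. Whether libraries of a number share a day or batch was not tested. Depth limits Cnn1, Higd1b and Ndufa4l2 most.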

Other observations

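Wild-type libraries 2 and 3 departed from the other libraries in different endothelial genes. Library 3 was the lowest of 9 for Cldn5 (20.4 CPM), Kdr (14.2) and Slco1a4 (36.1) and the highest for Slc2a1 (96.1), Ly6c1 (22.7) and Mfsd2a (16.7). It also had the highest immediate early gene score, 1.55 against 0.60 or less in the others. Library 2 was the lowest for Flt1, Tek, Tie1, Cdh5, Abcb1a and Mfsd2a (91.6, 14.0, 11.1, 19.2, 33.6 and 11.0 CPM) and the highest for Kdr (25.9), Slco1c1 (75.0), Bsg (387.8) and Ocln (12.2), and had the most choroid plexus RNA. Outliers in groups of 3 were not tested.

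Of the amino acid transporter genes of the barrier, 2 had a lower and 2 a higher mean in both heterozygotes. The log2 fold of Slc3a2, the heavy chain of the large neutral amino acid transporter, was -0.28 ± 0.08 in Tfap2a+/- and -0.22 ± 0.08 in the libraries labelled Tfap2b+/-, and that of its partner Slc7a5 was -0.19 ± 0.08 and -0.21 ± 0.08. Slc6a6, the taurine transporter, had 0.23 ± 0.08 and 0.14 ± 0.08, and Slc38a3, a glutamine transporter, 0.12 ± 0.12 and 0.04 ± 0.12. None of the 4 passed the edgeR test, neurons and glia express Slc3a2 too, and both comparisons share the wild-type libraries. Plvap, a protein of fenestrated endothelium such as that of the choroid plexus, had a log2 fold of 0.73 ± 0.26 in the libraries labelled Tfap2b+/-, above wild type in 3 of 3 libraries, and 0.04 ± 0.27 in Tfap2a+/-. Of the 10 choroid plexus markers 9 had a lower and 1 a higher mean in the libraries labelled Tfap2b+/- than in wild type (median log2 fold -2.48). Wild-type library 2 held the top sum of these markers, 3236 CPM. The part of the choroid plexus in the Plvap values was not tested.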
